A study of Mus musculus with 9 samples.

Results

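Muscle atrophy is carried by a small set of genes that skeletal muscle switches on in fasting, disuse, denervation and glucocorticoid excess. The 10 genes described here were taken by name: the ubiquitin ligase genes Fbxo32, Trim63, Fbxo30 and Fbxo21, the FoxO transcription factor genes Foxo1, Foxo3 and Foxo4, and 3 genes that act beside them, Klf15, Cdkn1a and Bnip3. They are 10 of the 19505 genes named on the array, each with a single probe set. All 10 lay above background on all 9 arrays. They were read in tibialis anterior, a fast muscle of the lower leg; the mice, of the C57/BL6 strain, were 2 months of age. The 3 genotypes were MCU knockout (MCU-/-/MCUb+/+), MCUb knockout (MCU+/+/MCUb-/-) and control (MCU+/+/MCUb+/+), with 3 arrays each. MCU forms the pore of the mitochondrial calcium uniporter, and MCUb is its paralogue in the same complex. The study was set up, by its title, to ask what MCUb does for oxidative phosphorylation. Whether the genes were deleted in the whole body or in muscle alone, and the sex of the mice, are not given in the sources used here.

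As background, FoxO factors sit in the cytoplasm while insulin and IGF-1 signal through the kinase AKT, which phosphorylates them. When that signal falls they enter the nucleus and switch on ligases of the ubiquitin-proteasome system and genes of autophagy. Fbxo32 (atrogin-1, also MAFbx) and Trim63 (MuRF1) are the ligases best known for this in muscle.

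Whole muscle was measured on Affymetrix Clariom S arrays, and the values are log2 levels of a probe set. A log2 difference of 1 is a doubling. Levels of different genes are not set against each other, because probe sets differ in brightness. In whole tissue, fewer cells of a type and less RNA per cell cannot be told apart. Nothing in the labels ties each sample of a group to its own mouse, and some of the spread behind the p-values may therefore be technical.

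Mcu, the deleted gene, checked the MCU knockout label. It averaged 6.94 ± 0.13 on MCU knockout arrays and 10.60 ± 0.31 on control arrays (SD, n = 3 each), a log2 difference of -3.65 (limma adjusted p = 3.47e-05), and 10.86 ± 0.18 in the MCUb knockout. Mcub was not analysed here. Fast muscle markers such as Ckm, Acta1 and Myh4 were above background on all arrays, 9 of 9 measured. One array stood apart: control replicate 3 lay at -70.8 on the first principal component, against -20.3 to 21.9 for the other 8 arrays. The Y-linked level, the mean of Uty and Kdm5d, was 7.24 to 7.80 on MCU knockout replicates 2 and 3 and MCUb knockout replicate 1. It was 3.01 to 3.89 (log2) on the other 6, which include the 3 control arrays. Another Y-linked gene, Eif2s3y, was measured and not above background on any array. Differences of the 10 genes that turned or moved by over 1.5 times without that control array, or with the Y-linked level in the model, are given with those values. Both comparisons with control share the same 3 control arrays.

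The upstream sequences of 3 of the genes are shown because they hold motifs of factors that act on these genes. RefSeq's promoter table (GRCm38.p6) matched 8 of the 10 genes, all but Fbxo32 and Foxo4. The 250 bases before each annotated start were read, 9 starts in all. In Trim63 the capitals mark a glucocorticoid receptor half-site (AGAACA, read here on the opposite strand) and, directly after it without overlap, a FoxO element (GTAAACA, also on the opposite strand). This pair is a known joint site of the glucocorticoid receptor and FOXO1. In Bnip3 they mark the hypoxia core ACGTG, which HIF factors bind, found on both strands of 1 overlapping site that is also an E-box (CACGTG). In Cdkn1a they mark 2 matches to the consensus of a p53 half-site, a factor known to switch this gene on. A further listed start of Cdkn1a, at chr17:29093769, had 0 matches in its window, which is not shown. The windows shown lie on chr4:134314870-134315119 (plus strand), chr7:138909507-138909756 (minus strand) and chr17:29090729-29090978 (plus strand). Each ends at the base before the gene's first annotated start.
Trim63: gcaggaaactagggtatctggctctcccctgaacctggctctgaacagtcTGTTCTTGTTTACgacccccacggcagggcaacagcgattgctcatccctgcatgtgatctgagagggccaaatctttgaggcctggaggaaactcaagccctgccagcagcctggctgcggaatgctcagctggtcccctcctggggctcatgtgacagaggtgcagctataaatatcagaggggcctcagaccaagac
Bnip3: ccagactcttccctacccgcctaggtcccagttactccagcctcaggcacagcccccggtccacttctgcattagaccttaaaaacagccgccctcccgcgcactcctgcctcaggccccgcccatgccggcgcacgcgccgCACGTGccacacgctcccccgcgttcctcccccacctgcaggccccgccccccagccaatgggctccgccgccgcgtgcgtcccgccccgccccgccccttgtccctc
Cdkn1a: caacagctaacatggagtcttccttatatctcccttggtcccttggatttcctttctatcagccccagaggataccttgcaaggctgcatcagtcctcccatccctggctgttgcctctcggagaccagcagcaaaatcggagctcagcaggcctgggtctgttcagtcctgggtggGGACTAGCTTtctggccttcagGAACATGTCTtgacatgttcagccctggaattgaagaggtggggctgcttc
The FoxO element began 194 bases before the Trim63 start and the glucocorticoid half-site 200 bases before it. Over all 32851 promoter windows of the same length, 3.17% held GTAAACA on either strand, 16.1% AGAACA, 16.6% ACGTG, 6.02% CACGTG and 7.13% the p53 half-site consensus. Of the 8 matched genes, 1 held the FoxO element (Trim63), 1 the glucocorticoid half-site (Trim63), 2 the hypoxia core (Bnip3 and Klf15), the same 2 the E-box, and 1 the p53 consensus (Cdkn1a). The motifs were chosen with the values of the genes known, and the matches describe letters and show no binding.

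None of the 10 genes passed the threshold of an adjusted p under 0.05 in any comparison (limma, Benjamini-Hochberg over 22206 probe sets). The counts were 0 of 10 in the MCU knockout against control, where 0.14% of all probe sets passed, 0 of 10 in the MCUb knockout against control (0.0225%), and 0 of 10 between the knockouts (0.158%). At an unadjusted p under 0.05 there was 1 higher (Fbxo32, beside 4.76% of all probe sets) and 1 lower (Bnip3, 5.35%) in the MCU knockout against control, 2 of 10 beside 10.1%. In the MCUb knockout against control there were 0 higher (3.9%) and 1 lower (Cdkn1a, 4.21%), 1 of 10 beside 8.11%. Between the knockouts, 2 were higher in the MCU knockout (Fbxo32 and Fbxo30, 2.68%) and 1 lower (Bnip3, 3.02%), 3 of 10 beside 5.7%. The smallest log2 difference that passed anywhere on the array was 1.20, 1.67 and 1.11 in these comparisons, while the median standard error (SE) of the 10 genes was 0.28. The median absolute log2 difference of the 10 genes was 0.49 in the MCU knockout, and 0.24 for all probe sets above background on every array. The same medians were 0.26 and 0.22 in the MCUb knockout, and 0.52 and 0.18 between the knockouts.

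**Figure D1:**
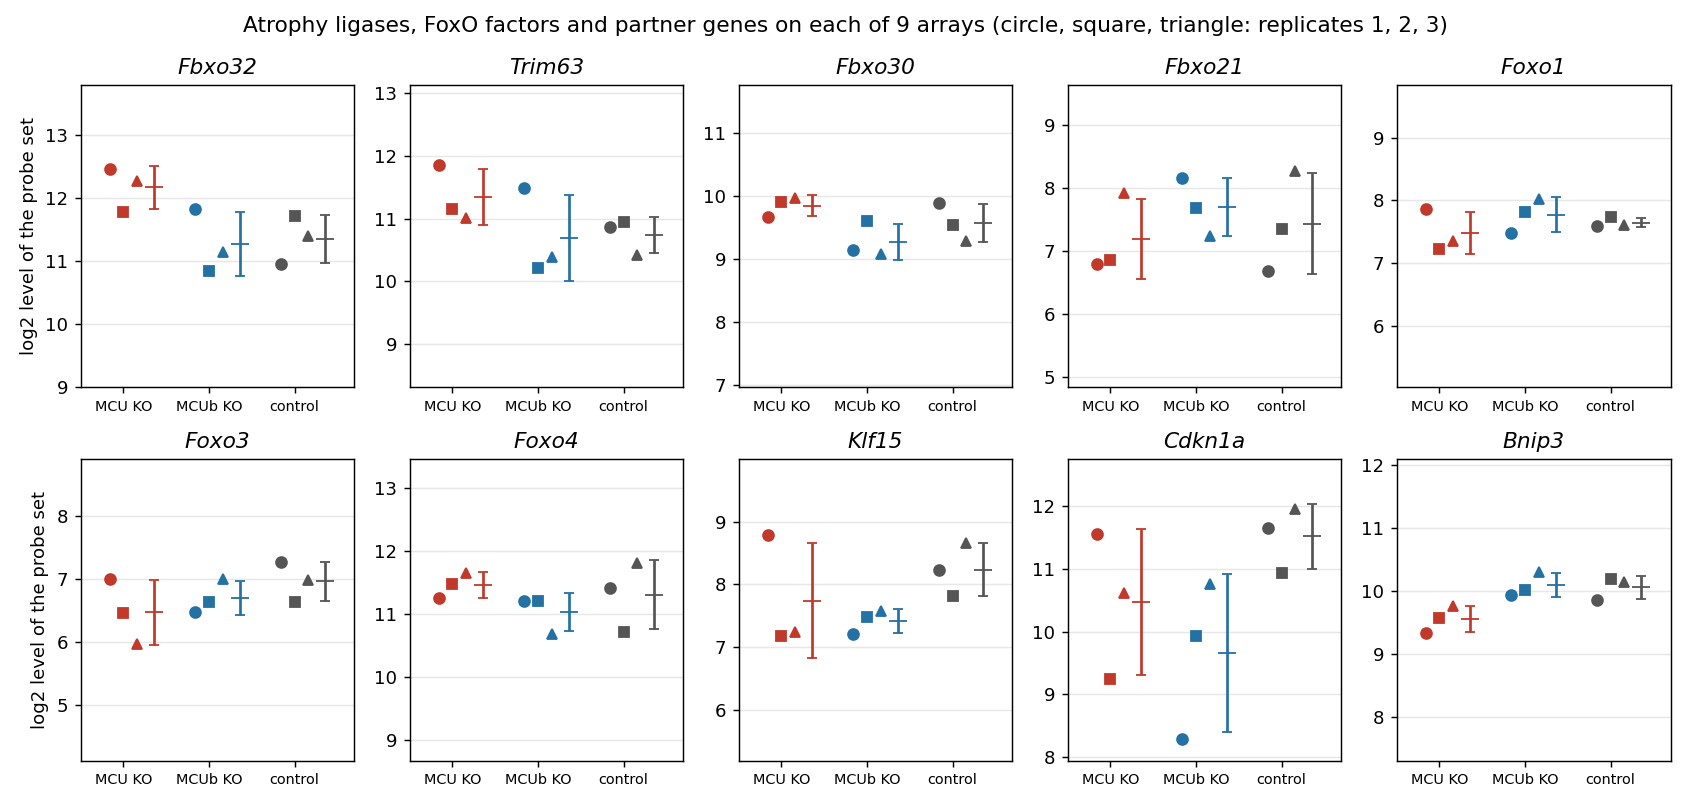
Log2 level of each of the 10 genes on each array, with the group mean and SD beside the points (n = 3 arrays a group). All panels span the same log2 range; Fbxo32 and Trim63 lie higher on all 3 MCU knockout arrays than on any control array, and Cdkn1a spreads most, from 8.30 to 11.94.

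Fbxo32 encodes an F-box protein, the subunit by which an SCF ubiquitin ligase picks its substrates. Its log2 level was 12.46, 11.79 and 12.27 on the MCU knockout arrays, 11.83, 10.84 and 11.13 on the MCUb knockout arrays, and 10.96, 11.71 and 11.40 on the control arrays. All MCU knockout arrays lay above all control arrays, the nearest 2 by little, and the MCUb knockout arrays overlapped with both. The mean was 12.17 ± 0.35 in the MCU knockout and 11.35 ± 0.38 in control, a log2 difference of 0.82 (SE 0.29, 1.76-fold, 95% interval 0.17 to 1.46, limma adjusted p = 0.412). In the MCUb knockout it was 11.27 ± 0.51, a difference of -0.09 from control (interval -0.73 to 0.56, adjusted p = 0.952). Between the knockouts the difference was 0.90 (SE 0.29, interval 0.26 to 1.55, adjusted p = 0.615). Without control replicate 3 the difference between MCU knockout and control was 0.84, and in a model holding the Y-linked level as a covariate it was 0.67. The MCUb difference was -0.16 in that model.

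Trim63 encodes a RING-finger ligase of the sarcomere that marks thick-filament proteins. Its log2 level was 11.85, 11.15 and 11.01 on the MCU knockout arrays, 11.48, 10.21 and 10.38 on the MCUb knockout arrays, and 10.87, 10.94 and 10.41 on the control arrays. MCU knockout arrays again lay above control arrays, by a narrow gap, and MCUb knockout replicate 1 reached into their range. The means were 11.34 ± 0.45 in the MCU knockout and 10.74 ± 0.28 in control, a log2 difference of 0.59 (SE 0.34, interval -0.15 to 1.34, adjusted p = 0.581). The MCUb knockout averaged 10.69 ± 0.69, a difference of -0.05 from control (interval -0.80 to 0.69, adjusted p = 0.978). The knockouts differed by 0.65 (interval -0.10 to 1.39, adjusted p = 0.924), and by 1.04 without MCUb knockout replicate 1. Without MCU knockout replicate 1 the MCU difference from control was 0.34, and without control replicate 3 it was 0.43. The MCUb difference from control was -0.21 without control replicate 3 and -0.13 with the Y-linked level in the model.

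Fbxo30 (MUSA1) is a further F-box ligase, which in mouse muscle is held down by BMP signalling. It stood at 9.66, 9.91 and 9.98 in the MCU knockout, at 9.14, 9.60 and 9.09 in the MCUb knockout, and at 9.90, 9.54 and 9.29 in control, all log2 levels. The 2 knockouts did not overlap, and control spanned the range between them. The MCU knockout was 0.58 above the MCUb knockout (9.85 ± 0.17 against 9.28 ± 0.28, SE 0.22, adjusted p = 0.744). Its difference from control was 0.28 in the MCU knockout (interval -0.20 to 0.76) and -0.30 in the MCUb knockout (interval -0.78 to 0.18). Without control replicate 3 these were 0.13 and -0.44.

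Fbxo21 (SMART in the atrophy literature) is a FoxO-dependent F-box ligase. Its log2 levels of 6.79, 6.85 and 7.92 in the MCU knockout, 8.16, 7.68 and 7.24 in the MCUb knockout, and 6.67, 7.35 and 8.27 in control overlapped throughout. The spread within control alone, 7.43 ± 0.80, was wider than any difference between groups. The log2 difference from control was -0.24 in the MCU knockout (interval -1.16 to 0.68) and 0.26 in the MCUb knockout (interval -0.66 to 1.18). Without control replicate 3 these were 0.18 and 0.68, and with the Y-linked level in the model -0.65 and 0.061. Of the 4 ligases, then, 3 had a higher mean in the MCU knockout than in control, and 0 passed.

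**Figure D2:**
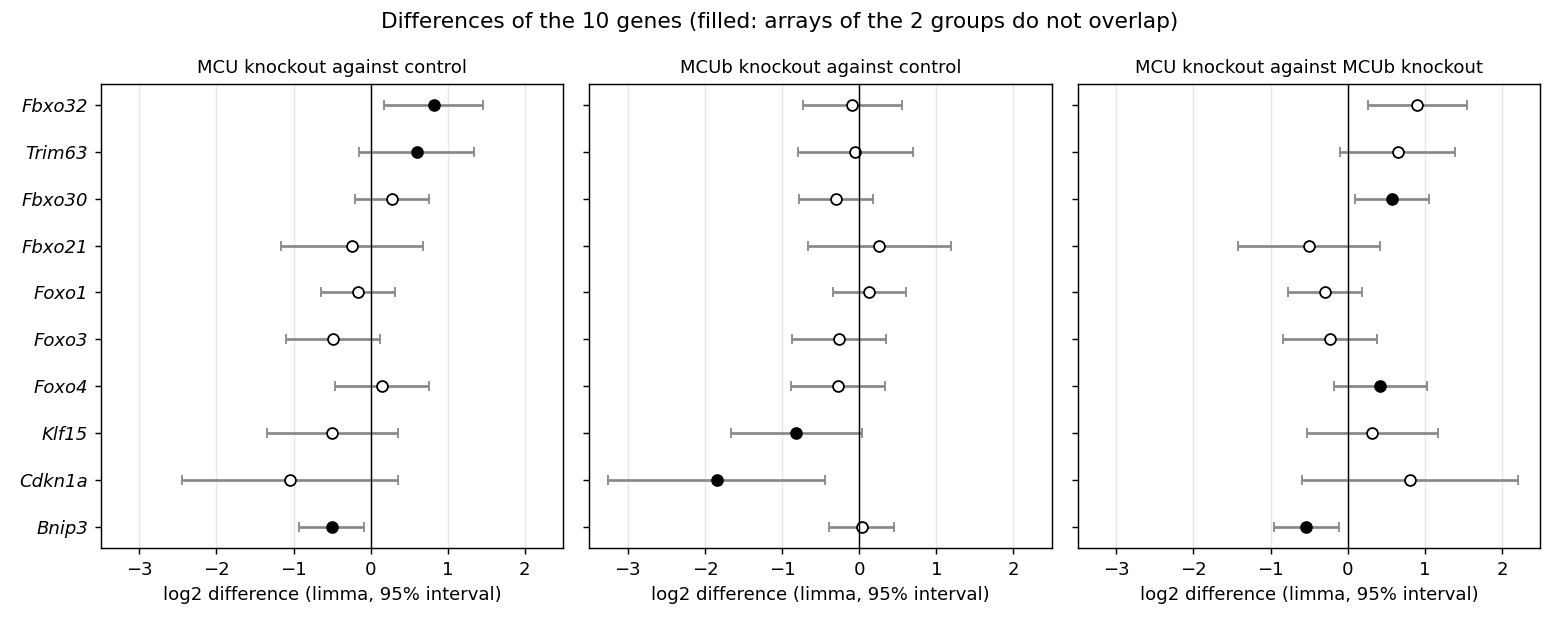
Log2 difference of each gene with its 95% interval from limma, in 3 comparisons (the first group named minus the second). Filled points mark genes whose arrays do not overlap between the 2 groups. These are 3 of 10 in the MCU knockout against control, beside 13.4% of all probe sets. They are 2 of 10 in the MCUb knockout against control (beside 12.8%) and 3 of 10 between the knockouts (beside 12.8%).

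Foxo1, the FoxO factor that insulin and fasting control most closely in muscle, was at 7.86, 7.23 and 7.35 in the MCU knockout, 7.48, 7.82 and 8.02 in the MCUb knockout, and 7.60, 7.73 and 7.61 in control (log2 levels). The control arrays lay close together, and both knockouts spread around them. The log2 difference from control was -0.16 in the MCU knockout (interval -0.64 to 0.31, adjusted p = 0.823) and 0.13 in the MCUb knockout (interval -0.35 to 0.60, adjusted p = 0.891). The knockouts differed by -0.29 (interval -0.77 to 0.18). With the Y-linked level in the model the MCUb difference from control was 0.28 and that between the knockouts -0.14.

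Foxo3, which drives both ligases and autophagy in muscle, had levels of 6.99, 6.46 and 5.96 in the MCU knockout, 6.47, 6.63 and 6.99 in the MCUb knockout, and 7.26, 6.63 and 6.98 in control. Its lowest array, MCU knockout replicate 3, was just above the background limit of 5.90 there. The mean was 6.47 ± 0.52 in the MCU knockout and 6.96 ± 0.32 in control, a log2 difference of -0.49 (SE 0.28, interval -1.09 to 0.12, adjusted p = 0.579). The MCUb knockout stood at -0.26 from control (interval -0.87 to 0.35). In a model holding the Y-linked level the values were -0.19 and -0.11. Between the knockouts Foxo3 differed by -0.23, and by -0.076 in that model.

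Foxo4, an X-linked member of the family, had log2 levels of 11.24, 11.47 and 11.66 in the MCU knockout and of 11.21, 11.20 and 10.69 in the MCUb knockout, against 11.40, 10.72 and 11.80 in control. The knockouts did not overlap, by a narrow gap, but the control arrays spread over the range of both. The knockouts differed by 0.42 (interval -0.18 to 1.03). The difference from control was 0.15 in the MCU knockout (interval -0.46 to 0.75) and -0.27 in the MCUb knockout (interval -0.88 to 0.33). In the MCU knockout it was 0.40 without control replicate 3, -0.15 without control replicate 2 and -0.056 with the Y-linked level in the model. In the MCUb knockout it was -0.028 without control replicate 3. None of the 3 FoxO genes reached an unadjusted p under 0.05 in any comparison.

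Cdkn1a encodes p21, an inhibitor of cyclin-dependent kinases that FoxO factors and p53 both induce and that rises in denervated and immobilised muscle. Its log2 level was 11.54, 9.24 and 10.61 in the MCU knockout, 8.30, 9.94 and 10.75 in the MCUb knockout, and 11.65, 10.94 and 11.94 in control. Every MCUb knockout array lay below every control array, and the MCU knockout spread over both ranges. The mean was 9.66 ± 1.25 in the MCUb knockout and 11.51 ± 0.52 in control, a log2 difference of -1.85 (SE 0.64, 3.60-fold lower, interval -3.25 to -0.45, adjusted p = 0.535). The MCU knockout averaged 10.47 ± 1.16, a difference of -1.04 from control (interval -2.45 to 0.36, adjusted p = 0.603). Over the 9 arrays Cdkn1a had an SD of 1.20, above that of 99.7% of the probe sets above background on every array. Without MCUb knockout replicate 1 the MCUb difference was -1.17, without control replicate 3 it was -1.63, and with the Y-linked level in the model it was -1.31. The knockouts differed by 0.81 (interval -0.60 to 2.21). That difference was 0.27 without MCU knockout replicate 1, 0.12 without MCUb knockout replicate 1 and 1.36 with the Y-linked level in the model.

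Klf15 encodes a Krüppel-like factor that glucocorticoids induce in muscle and that switches on amino acid breakdown and the ligase genes. It was at 8.79, 7.19 and 7.24 in the MCU knockout, at 7.21, 7.48 and 7.57 in the MCUb knockout, and at 8.23, 7.81 and 8.66 in control (log2 levels). The MCUb knockout arrays all lay below the control arrays. In the MCU knockout replicate 1 was the highest of all 9 arrays, while replicates 2 and 3 were below every control array. The MCUb difference was -0.81 (SE 0.39, 7.42 ± 0.19 against 8.23 ± 0.42, interval -1.67 to 0.04, adjusted p = 0.619). The MCU difference was -0.50 (interval -1.35 to 0.36, adjusted p = 0.687), with -1.02 when MCU knockout replicate 1 was left out and -0.28 when control replicate 3 was. The knockouts differed by 0.32, and by 0.58 with the Y-linked level in the model. Without MCU knockout replicate 1 that difference turned to -0.21.

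Bnip3 encodes a protein of the mitochondrial outer membrane that recruits the autophagy machinery, a target of both FOXO3 and HIF1. It had log2 levels of 9.35, 9.57 and 9.77 in the MCU knockout, 9.95, 10.03 and 10.31 in the MCUb knockout, and 9.86, 10.19 and 10.15 in control. The MCU knockout arrays were the lowest 3 of the 9, and the other groups overlapped. The mean was 9.56 ± 0.21 in the MCU knockout and 10.07 ± 0.18 in control, a log2 difference of -0.50 (SE 0.19, 1.42-fold lower, interval -0.93 to -0.08, adjusted p = 0.423). Against the MCUb knockout (10.10 ± 0.19) it was -0.53 (SE 0.19, interval -0.96 to -0.11, adjusted p = 0.718). The MCUb knockout was 0.030 from control (interval -0.39 to 0.45), 0.071 without control replicate 3 and 0.020 with the Y-linked level in the model. In a model holding the Y-linked level the MCU difference from control was -0.53.

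By array order, groups did not overlap for Fbxo32 and Trim63 (higher, 2 of 10 beside 6.08% of all probe sets) and Bnip3 (lower, 1 of 10 beside 7.33%) in the MCU knockout against control, 3 of 10 beside 13.4%. In the MCUb knockout against control this held for 0 higher (5.73%) and for Klf15 and Cdkn1a, both lower (7.02%), 2 of 10 beside 12.8%. Between the knockouts it held for Fbxo30 and Foxo4 (higher in the MCU knockout, 6.59%) and Bnip3 (lower, 6.19%), 3 of 10 beside 12.8%. For each of these genes the two-sided exact permutation p was 0.1, and a design of 3 arrays a group can go no lower. Whether the effects of the knockouts differ is tested by their direct comparison. There Fbxo32, Trim63, Klf15, Cdkn1a and Bnip3 had log2 differences of 0.90, 0.65, 0.32, 0.81 and -0.53, each with a limma adjusted p of 0.615 or higher. Those of Klf15 and Cdkn1a rest on single arrays, as given above.

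Pearson correlations were computed for all 45 pairs of the 10 genes over the 9 arrays, as a description: the points share arrays and group differences. Of the 45, 3 had an r above 0.7 and 35 lay between -0.5 and 0.5, with a median of 0.02. Fbxo32 and Trim63 had an r of 0.81 (Spearman rho 0.90). It was 0.70 for the deviations from the group means, and 0.84 without the 2 arrays farthest from the median of Fbxo32. Both genes were highest on MCU knockout replicate 1 and lowest on MCUb knockout replicate 2. Klf15 and Cdkn1a had an r of 0.82 (rho 0.92), 0.72 for the deviations from the group means and 0.80 without the 2 arrays farthest from the median of Klf15. Foxo3 and Klf15 had an r of 0.73 (rho 0.80), with 0.77 and 0.79 under the same treatments. By deviations from the group means the highest r was that of Foxo1 and Cdkn1a, at 0.84, with 0.41 over the 9 arrays. Such deviations still hold the differences in Y-linked level between arrays of the same knockout. With the FoxO genes, the r of Fbxo32 was -0.34 for Foxo1, -0.48 for Foxo3 and 0.19 for Foxo4. For the deviations from the group means it was 0.04, -0.28 and -0.21. The lowest r was that of Trim63 and Bnip3, at -0.76 (rho -0.72), with -0.60 within groups and -0.63 without the 2 farthest arrays.

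**Figure D3:**
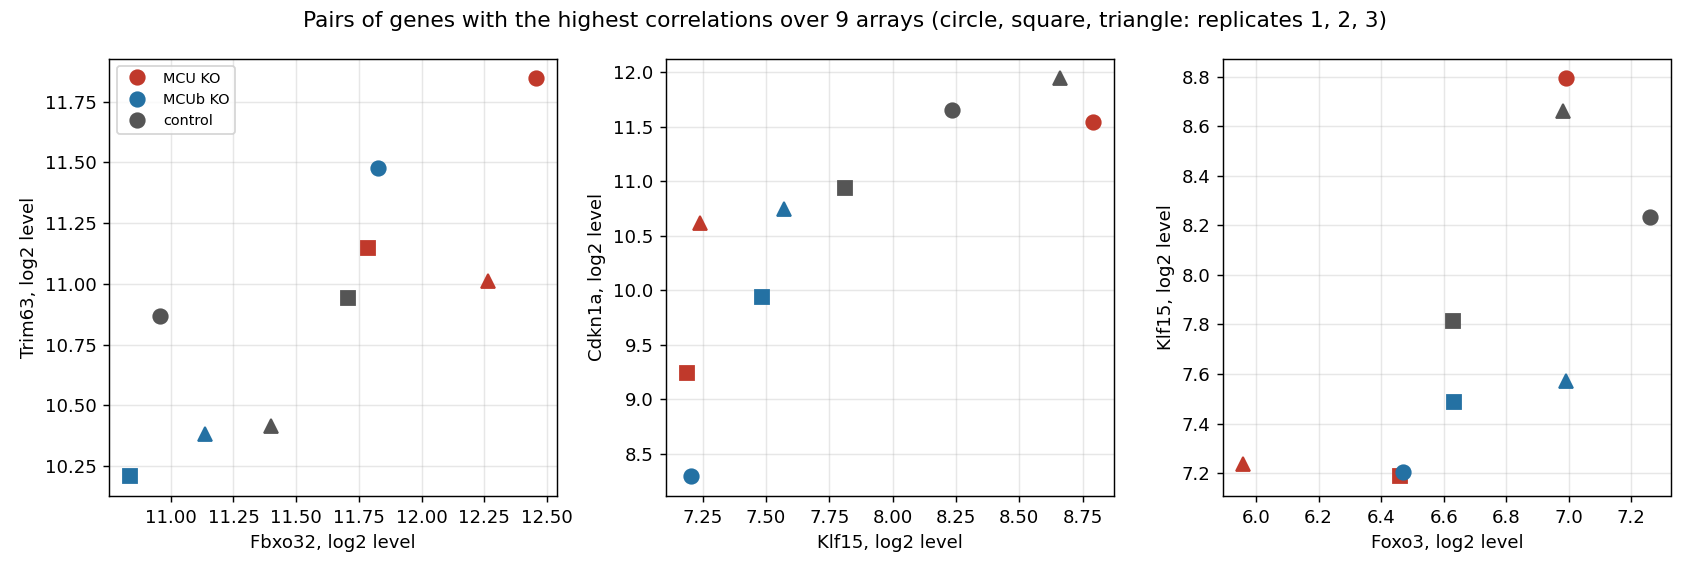
Log2 levels of 3 pairs of genes, 1 point an array, coloured by genotype. The pairs are those with the highest r over the 9 arrays: Fbxo32 with Trim63 at 0.81, Klf15 with Cdkn1a at 0.82 and Foxo3 with Klf15 at 0.73.

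The array-to-array pattern of 3 of the genes moved with the Y-linked level. No control array had a high level, so this level and genotype are partly confounded. They cannot be fully told apart, either by array or with the level in the model. On the 3 arrays where that level was high, Klf15 was at 7.19 to 7.24 against 7.48 to 8.79 on the other 6. Foxo3 was at 5.96 to 6.47 against 6.63 to 7.26, and Foxo1 at 7.23 to 7.48 against 7.60 to 8.02. These 3 of 10 genes did not overlap between the 2 sets of arrays, and were lower on the 3, beside 1.85% of all probe sets lower and 3.57% in either direction. With the Y-linked level in the model, the log2 difference between MCU knockout and control was 0.018 for Klf15, 0.14 for Foxo1 and 0.044 for Cdkn1a. Without it, these were -0.50, -0.16 and -1.04. On arrays with a low level only, the MCUb knockout (replicates 2 and 3) stood at -0.71 from control for Klf15 and at -1.17 for Cdkn1a. The MCU knockout has 1 such array, replicate 1, with Klf15 at 8.79 and Cdkn1a at 11.54, each within or above the range of the controls. The other 7 genes overlapped between the 2 sets of arrays, Cdkn1a among them, with 8.30 to 10.61 on the 3 arrays and 9.94 to 11.94 on the other 6.

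Genes with the most similar profiles over the 9 arrays were searched among 7807 other genes above background on every array. For Cdkn1a, the gene with the widest spread, they were Copb2, Echs1 and Rel (r of 0.95, 0.94 and 0.93). For Klf15 they were Mbnl1, Srsf2 and Ldhb (0.96, 0.94 and 0.94), and for Fbxo21 Jtb, Ago1 and Siva1 (0.96, 0.93 and 0.92). For Fbxo32 they were Cp, Phyh and Cdkn2aipnl (0.91, 0.90 and 0.90). These are the highest values among 7807 with only 9 points each, and no test was made of them.

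The genes around the ligases and FoxO factors were read in 8 lists, of which 0 members passed in any comparison. Counts at an unadjusted p under 0.05 are given for each list. Over all probe sets the shares were 4.76% higher and 5.35% lower in the MCU knockout against control, 3.9% and 4.21% in the MCUb knockout against control, and 2.68% and 3.02% between the knockouts. Other muscle ubiquitin ligases, 16 measured, had a median log2 difference from control of -0.19 in the MCU knockout and -0.09 in the MCUb knockout, against medians of -0.02 and -0.03 over all probe sets. At an unadjusted p under 0.05, 0 were higher and 1 lower in the MCU knockout, 0 higher and 0 lower in the MCUb knockout, and 0 higher and 1 lower between the knockouts. Nedd4, a HECT ligase, stood at 10.32 ± 0.26 in the MCU knockout and 11.13 ± 0.07 in control (log2 difference -0.82, adjusted p = 0.201). Fbxo40, which targets IRS1 in muscle, was at -0.25 and Itch at -0.37 in the same comparison. For the MCUb knockout against control, the smallest p belonged to Fbxo31 (0.44), Nedd4 (-0.28) and Fbxl22, which was not above background on any array. Between the knockouts Asb2, which lowers muscle mass, was at 0.44 (adjusted p = 0.917).

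The SCF core and E2 enzymes, which F-box ligases need, had medians of 0.14 and 0.16 in the MCU and MCUb knockouts against control over 11 measured genes. Of these, 1 were higher and 1 lower at that p in the MCU knockout, 1 and 0 in the MCUb knockout, and 0 and 0 between the knockouts. Ube2b, an E2 enzyme that rises in atrophy, was at -0.57 in the MCU knockout (adjusted p = 0.421) and -0.40 in the MCUb knockout. Nedd8, the modifier that activates cullins, was at 0.62 and 0.79. The 16 substrates and targets of the ligases had medians of 0.14 and 0.14, and 0 of them had an unadjusted p under 0.05 in any comparison. Eif3f, a substrate of atrogin-1, was at -0.39 and -0.25. Mylpf, the fast myosin light chain, was at 0.47 and 0.34, and Smad4 at 0.36 and 0.35.

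Regulators of FoxO had medians of -0.10 in the MCU knockout and 0.06 in the MCUb knockout over 19 measured genes. At that p, 2 were lower and 0 higher in each of the 3 comparisons. Pdpk1, the kinase that activates AKT, was at -0.55 and -0.70 (adjusted p of 0.418 and 0.527), with control at 10.70 ± 0.17. Irs1, the insulin receptor substrate, averaged 11.69 ± 0.56 in the MCUb knockout and 13.06 ± 0.56 in control (log2 difference -1.37, adjusted p = 0.534). Mstn, the gene of myostatin, which restrains muscle growth, averaged 11.15 ± 0.36 in the MCU knockout and 11.96 ± 0.27 in control (log2 difference -0.81, adjusted p = 0.361). Akt2 was at -0.44 in the MCU knockout. Between the knockouts the 2 lower genes were Sirt1 at -0.55 and Akt1 at -0.55 (limma adjusted p of 0.718 and 0.830). Akt1 was above background on only 4 arrays.

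Other FoxO targets had medians of 0.04 and -0.14 in the MCU and MCUb knockouts against control over 21 measured genes, and of 0.17 between the knockouts, where the median of all probe sets was 0.01. Of the 21, 1 were higher and 4 lower at that p in the MCU knockout, 0 and 3 in the MCUb knockout, and 1 and 0 between the knockouts. Pdk4, whose product inhibits pyruvate dehydrogenase, had its highest mean in the MCU knockout, as Fbxo32 did. It averaged 11.42 ± 0.41 in the MCU knockout and 9.55 ± 0.72 in the MCUb knockout, a log2 difference of 1.87 (SE 0.36, adjusted p = 0.112), with control at 10.41 ± 0.42. Cited2 was at -0.89 in the MCUb knockout (adjusted p = 0.534). Ccng2, a cyclin that FoxO factors induce, was at -0.82 and -0.72, and Bnip3l, the homologue of Bnip3, at -0.50 in the MCU knockout and -0.18 in the MCUb knockout.

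Glucocorticoid and KLF15 targets had medians of 0.22 and 0.12 in the MCU and MCUb knockouts against control over 18 measured genes. Of the 18, 4 were higher and 0 lower at that p in the MCU knockout, 2 and 0 in the MCUb knockout, and 1 and 1 between the knockouts. Tsc22d3 (GILZ), a direct glucocorticoid target, averaged 12.50 ± 0.29 in the MCU knockout, 12.74 ± 0.15 in the MCUb knockout and 11.80 ± 0.22 in control (differences from control of 0.70 and 0.94, adjusted p of 0.333 and 0.411). Fkbp5, likewise such a target, was at 1.01 and 1.07, with a control SD of 0.97. Errfi1 was at 1.09 in the MCU knockout (adjusted p = 0.252) and -0.12 in the MCUb knockout. Per1 averaged 9.02 ± 0.26 in the MCU knockout, 9.91 ± 0.17 in the MCUb knockout and 9.31 ± 0.60 in control. Its difference between the knockouts was -0.89 (limma adjusted p = 0.582). Klf15, itself a target of the receptor, had the opposite sign to Tsc22d3 and Fkbp5 in both knockouts against control. The Klf15 difference between MCU knockout and control was 0.018 with the Y-linked level in the model.

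Around Cdkn1a, the p53 targets and CDK inhibitors had medians of 0.10 and 0.03 in the MCU and MCUb knockouts against control over 14 measured genes. Of the 14, 1 were higher and 0 lower at that p in the MCU knockout, 1 and 1 in the MCUb knockout, and 1 and 0 between the knockouts. Mdm2 and Ccng1, p53 targets chosen here after their values were seen, were at -0.10 and 0.16 in the MCUb knockout. The part of p53 in the level of Cdkn1a was not tested. Gadd45g, a stress-induced gene, averaged 12.48 ± 0.44 in the MCU knockout, 11.93 ± 0.21 in the MCUb knockout and 10.85 ± 0.68 in control (differences of 1.64 and 1.09, adjusted p of 0.132 and 0.530). Its relative Gadd45b was at -1.22 in the MCUb knockout (adjusted p = 0.477).

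Around Bnip3, the partners and hypoxia genes had medians of 0.01 and -0.06 in the MCU and MCUb knockouts against control over 17 measured genes. Of the 17, 2 were higher and 4 lower at that p in the MCU knockout, 3 and 2 in the MCUb knockout, and 0 and 0 between the knockouts. Egln3, a prolyl hydroxylase that HIF1 induces, averaged 9.09 ± 1.01 in the MCU knockout, 10.07 ± 1.41 in the MCUb knockout and 12.03 ± 0.73 in control (differences of -2.94 and -1.96, adjusted p of 0.204 and 0.535). Ankrd37, likewise a HIF1 target, was at -1.07 and -0.65. Bcl2l1, which encodes the cell survival protein BCL-XL and binds BNIP3, averaged 7.63 ± 0.10 in the MCU knockout, 7.39 ± 0.20 in the MCUb knockout and 6.41 ± 0.34 in control (differences of 1.22 and 0.98, adjusted p of 0.0678 and 0.385). Opa1, of mitochondrial fusion, was at 0.75 in the MCUb knockout (adjusted p = 0.530).

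**Figure D4:**
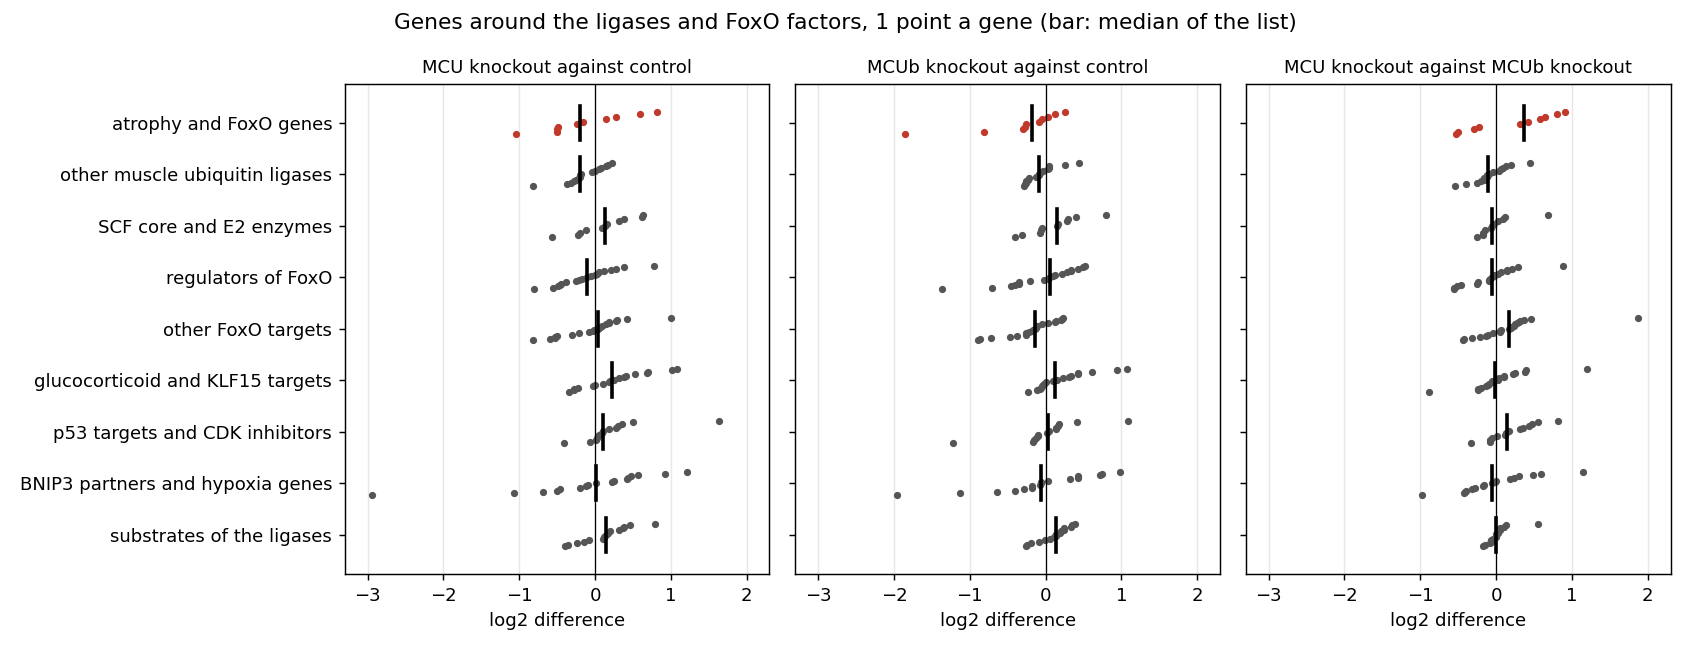
Log2 differences of the 10 genes (red) and of the measured members of 8 lists around them (grey), 1 point a gene, with the median of each list as a bar. In all 3 comparisons the medians lie between -0.20 and 0.37, with single genes such as Egln3 at -2.94 far from them.

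Markers of other cells of the muscle were read beside these results. Of the macrophage markers, 4 of 5 were measured and 2 of those were above background on every array. The 4 measured had a mean log2 level of 6.46 to 7.34 in the MCU knockout, 6.24 to 7.09 in the MCUb knockout and 6.37 to 6.61 in control. Fibroblast markers, 5 measured, ranged over 10.04 to 11.57, 10.33 to 10.88 and 10.14 to 10.67 in the same order, and endothelial markers over 9.58 to 9.98, 8.79 to 9.59 and 9.15 to 10.34. The satellite cell markers Pax7, Myf5 and Vcam1 and the adipocyte markers Plin1, Lep and Cidec were not above background on any array. At an unadjusted p under 0.05, the MCU knockout against control had 2 of 4 macrophage and 1 of 5 fibroblast markers higher and 1 of 2 erythroid markers lower, beside 4.76% and 5.35% of all probe sets. The MCUb knockout against control had 1 of 4 satellite cell markers higher, and 2 of 5 endothelial and 1 of 2 erythroid markers lower, beside 3.9% and 4.21%. Between the knockouts 2 of 5 endothelial markers were higher in the MCU knockout, beside 2.68%. Adipocyte, Schwann cell and fast muscle markers had 0 in all 3 comparisons. The part of these cells in the levels of the 10 genes was not tested.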

How the data were processed

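RNA of 9 muscles was labelled and hybridised to Clariom S arrays. Each array has a deposited column of log2 values, for which the submitters' processing notes name Affymetrix Expression Console. Neither the version nor the summarisation, normalization and logarithm base are stated there. The log2 scale was inferred from the range, 2.46 to 19.9. Of 28846 values an array, 6640 of control features were left out. Platform annotation named 19572 of 22206 probe sets, and RefSeq's table (GRCm38.p6) updated the symbols. Above background means over the 95th percentile of an array's 23 background probe sets (5.87 to 5.92).

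Two-sided tests came from limma 3.58.1 (eBayes after lmFit, under R 4.3.3): 1 model of 3 genotype means over the 9 arrays (6 residual degrees of freedom, prior 5.06). The code was tested on simulated data. The 10 genes and the 8 lists were chosen with earlier results of these data known. All 10 genes are named, and from each list up to 3 genes of smallest p in a comparison; others are marked. Alternatives covered filtering, normalization, variance model, array weights, the arrays fitted, the replicate block, the Y-linked covariate, and leaving out each array.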

Additional observations from a re-analysis of the deposited data

How the results depend on the processing

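Under all 17 alternatives 0 of the 10 genes passed in each comparison. At an unadjusted p under 0.05, the MCU knockout against control had 0 to 3 of 10, beside 7.66% to 16.6% of all probe sets. The MCUb knockout against control had 0 to 3 of 10 beside 6.26% to 15.0%. Between the knockouts there were 1 to 4 of 10 beside 4.67% to 8.11%. The lowest adjusted p was 0.176. Of 510 values of the genes under these settings, 491 kept their direction and 19 turned. The causes were not tested. Filtering, the variance model, the arrays fitted, the replicate block and leaving out an array of the third group cannot change a difference. Part of the 491 were therefore fixed in advance. With array weights, Fbxo21 in the MCU knockout against control stood at 0.087 and Fbxo32 in the MCUb knockout against control at 0.014. With the Y-linked level in the model, the MCU knockout differed from control by 0.14 for Foxo1, -0.056 for Foxo4, 0.018 for Klf15 and 0.044 for Cdkn1a. With 1 array left out, log2 differences that turned ranged from -0.62 to 0.18 (Fbxo21) and -0.15 to 0.40 (Foxo4) in the MCU knockout against control. In the MCUb knockout against control they ranged from -0.37 to 0.13 (Fbxo32), -0.45 to 0.19 (Trim63), -0.12 to 0.68 (Fbxo21) and -0.077 to 0.10 (Bnip3). Between the knockouts they ranged from -0.49 to 0.028 (Foxo3) and -0.21 to 0.59 (Klf15). Over all probe sets, the counts past the threshold were 31, 5 and 35 in the MCU knockout against control, the MCUb knockout against control and between the knockouts, and ranged over 16 to 98, 0 to 20 and 13 to 61 across the alternatives. The highest count in each comparison with control came without control replicate 2. The replicate number as a block cannot change a difference, because each number holds 1 array of each group (0.82 for Fbxo32 in the MCU knockout against control). With that block, 0 genes passed. Same-numbered arrays of different groups deviated together with an r of -0.12 to 0.09, and arrays with different numbers likewise with -0.12 to 0.09. No shared deviation is seen, but with 3 arrays a group this cannot tell whether the numbers pair the samples. Each gene has 1 probe set, so the choice between probe sets was not run. With 3 arrays a group, the number of arrays limits the precision.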
